A study of Mus musculus with 16 samples.

Results

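The granule neuron progenitor transcription factors described here are 8 genes, Atoh1, Barhl1, Zic1, Zic2, Pax6, Meis1, Mycn and Insm1, among 18193 genes measured. Every probe set listed with one of these symbols alone was taken, which gave 19 of the 34945 probe sets with 1 gene symbol. Pax6 had 5, Meis1 and Mycn 3 each, Barhl1, Zic1 and Insm1 2 each, and Atoh1 and Zic2 1 each. RNA was taken at postnatal day 7 from the whole cerebellum or the whole lung of C57BL/6J mice given dexamethasone, a synthetic glucocorticoid, or vehicle. Each of the 4 groups (vehicle cerebellum, dexamethasone cerebellum, vehicle lung and dexamethasone lung) had 4 arrays, described by the submitters as biological replicates. No genetic change is listed for any group, and the labels state neither the dose nor the schedule of dexamethasone. The design asks what dexamethasone does to RNA in each organ. These 8 genes were grouped as factors of granule neuron progenitors, the dividing precursors of the most numerous cerebellar neuron. Several of them are also present in other cells, so they do not measure those precursors alone.

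Granule neuron progenitors arise in the rhombic lip, spread over the cerebellar surface as the external granule layer and divide there in the first weeks after birth, driven by Sonic hedgehog from Purkinje cells. Atoh1, a basic helix-loop-helix factor that pairs with E proteins, sets up the lineage. Mycn, a Myc-family factor raised by hedgehog signalling, drives division. The homeodomain proteins Barhl1, Pax6 and Meis1 and the zinc-finger proteins Zic1 and Zic2 are present in progenitors and, in part, in the neurons they form, and Insm1, a zinc-finger protein, marks late progenitors and newborn neurons. In lung, Insm1 is known from neuroendocrine cells, Mycn from the growing distal epithelium, and Meis1, a partner of Pbx and Hox proteins, from mesenchyme and other non-epithelial cells.

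The 8 genes lie on 6 chromosomes in GRCm38.p6, at chr6:64729125-64731245 for Atoh1, chr2:28907680-28917984 for Barhl1, chr9:91358058-91365768 for Zic1, chr14:122475384-122480328 for Zic2, chr2:105668896-105698410 for Pax6, chr11:18880428-19019651 for Meis1, chr12:12936093-12941836 for Mycn and chr2:146221997-146225020 for Insm1. RefSeq promoter sequences on that build matched 6 of the 8 genes, with 2 start sites each for Barhl1 and Pax6, and the 250 bases before each start were searched on both strands. The windows of 4 genes are shown because the results turn on them: Atoh1 defines the lineage, 1 Barhl1 probe set had the largest cerebellar difference among the 19, Zic1 was bright in cerebellum and near the lowest values in lung, and Meis1 changed in lung. Each is written from 5′ to 3′ on its gene's strand, ending at the base before the start site, with matches to the searched motifs in capitals.
Atoh1, chr6:64728875-64729124, plus strand: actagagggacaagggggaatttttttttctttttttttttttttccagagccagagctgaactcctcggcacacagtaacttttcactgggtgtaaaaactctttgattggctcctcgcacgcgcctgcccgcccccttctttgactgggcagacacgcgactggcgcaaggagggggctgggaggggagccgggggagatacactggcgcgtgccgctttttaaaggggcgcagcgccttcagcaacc
Barhl1, chr2:28916669-28916918, minus strand: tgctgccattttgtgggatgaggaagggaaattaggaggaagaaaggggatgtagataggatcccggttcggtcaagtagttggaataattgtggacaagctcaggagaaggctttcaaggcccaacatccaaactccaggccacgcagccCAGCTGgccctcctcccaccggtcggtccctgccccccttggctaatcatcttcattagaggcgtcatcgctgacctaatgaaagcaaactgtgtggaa
Zic1, chr9:91365769-91366018, minus strand: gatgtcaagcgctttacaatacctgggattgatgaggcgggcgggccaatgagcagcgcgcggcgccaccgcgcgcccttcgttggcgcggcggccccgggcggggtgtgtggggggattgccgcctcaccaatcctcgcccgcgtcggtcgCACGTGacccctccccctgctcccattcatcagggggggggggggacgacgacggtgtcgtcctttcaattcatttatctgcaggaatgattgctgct
Meis1, chr11:19018970-19019219, minus strand: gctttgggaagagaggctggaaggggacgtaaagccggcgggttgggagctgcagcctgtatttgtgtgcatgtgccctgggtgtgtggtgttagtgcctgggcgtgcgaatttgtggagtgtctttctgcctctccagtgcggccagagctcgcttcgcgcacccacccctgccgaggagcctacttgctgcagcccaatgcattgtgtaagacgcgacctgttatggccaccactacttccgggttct
Of the 5 motifs searched, CAGCTG, an E-box of the kind bound by Atoh1, stands 99 to 94 bases before this Barhl1 start and 15 to 10 bases before its other one. CACGTG, the E-box of Myc proteins, stands 98 to 93 bases before the Zic1 start. TGACAG, a Meis motif, was matched on the minus strand at the second Pax6 start, chr2:105682213-105682462, 159 to 154 bases before it. No window of the 6 genes held GACCACCCA, the Gli motif, or AGAACA, a glucocorticoid receptor half-site. Among all 32851 promoter windows of this length, 13.0% held CAGCTG, 6.02% CACGTG, 15.9% TGACAG, 0.225% GACCACCCA and 16.1% AGAACA. Both E-box motifs read the same on either strand, and none of the 5 overlaps another in these windows. These matches describe letters only.

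Values are log2 RMA levels, in which a difference of 1 is a 2-fold difference and a value is given whether or not a transcript is detected. Dim probe sets are therefore compressed, and levels of different probe sets are not compared with each other. Array medians ran from 5.87 to 6.00. The organs matched their labels: the mean of 7 lung epithelial markers ran from 5.43 to 5.59 over the cerebellar arrays and from 10.9 to 11.5 over the lung arrays. The 3′ minus 5′ difference of the Gapdh control probe sets, a sign of RNA quality, was 0.04 to 0.52 in vehicle cerebellum and 0.05 to 0.18 in dexamethasone cerebellum. It was 0.84 to 1.04 in vehicle lung and 0.45 to 0.71 in dexamethasone lung, without overlap, so in lung it cannot be told apart from the treatment. The vehicle groups of the organs did not overlap either, so between them it cannot be told apart from the organ. Xist was above 9 in 1 and 2 of 4 cerebellar arrays and in 1 and 3 of 4 lung arrays (vehicle and dexamethasone), and the labels give no sex.

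All 8 genes were higher in vehicle cerebellum than in vehicle lung, and for each of the 8 no lung array reached the lowest cerebellar one. Each gene stands here by its brightest probe set (mean of 16 arrays), and a call is an adjusted p under 0.05 in limma. The 8 of 8 called compare with 29.7% of all genes called higher in cerebellum. How many of all genes had groups without overlap, here or in the later comparisons, was not counted.

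Among the zinc-finger genes, Zic1 read 13.34, 13.33, 13.21 and 13.36 in vehicle cerebellum and 3.69, 4.45, 4.06 and 4.15 in vehicle lung. The difference, lung minus cerebellum, was a log2 of -9.22 ± 0.16 (SE), a measured ratio of 598-fold. Its other probe set gave 519-fold. Lung values of Zic1, between 3.69 and 4.45, lie near the lowest value of the data (3.15). Ratios of genes this dim in lung describe the measured values, and genes are not ranked by them. Insm1 was 86.8-fold lower in lung, with 11.12 ± 0.17 (SD, n = 4) in cerebellum and 4.68 ± 0.17 in lung, and 94.4-fold lower by its other probe set. Zic2 was 13.8-fold lower, with 8.47 ± 0.25 in cerebellum and 4.68 ± 0.08 in lung.

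Among the homeobox genes, Pax6 was 69.7-fold lower in lung, with 11.16 ± 0.18 in cerebellum and 5.03 ± 0.20 in lung. Its other probe sets gave smaller ratios, 17.5-fold, 2.30-fold, 1.52-fold and 1.07-fold lower, the last not called. Barhl1, which acts downstream of Atoh1 in granule cells, was 15.5-fold lower by 1 probe set and 22.5-fold lower by the other. Meis1 differed by 2.03-fold (log2 -1.02 ± 0.13, adjusted p = 2.24e-06). Its 4 vehicle cerebellar arrays read 10.17, 10.40, 9.94 and 10.20, and its 4 vehicle lung arrays 9.04, 9.31, 8.98 and 9.28.

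Atoh1 was 13.7-fold lower in lung, at 8.99 ± 0.33 in cerebellum and 5.21 ± 0.11 in lung. Mycn was 5.59-fold lower, at 10.81 ± 0.19 and 8.33 ± 0.13. Adjusted p over all genes for the 8 ran from 3.66e-17 to 2.24e-06.

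Not every probe set repeated its gene's difference. Of the 19, 16 were called higher in cerebellum, against 24.7% of all 45037 probe sets, and 1 was called higher in lung, 17 in all against 48.2% of all probe sets called either way. That 1 was Meis1 1459423_at, with 5.02 ± 0.14 in cerebellum and 5.76 ± 0.61 in lung (log2 0.73 ± 0.26, adjusted p = 0.0246). Its vehicle lung array B14 read 6.64, against 5.25 to 5.69 in the others. When 1 array was left out the difference ran from 0.44 to 0.90, with limma adjusted p up to 0.0993, so this call was not firm. Mycn 1425923_at (-0.14, adjusted p = 0.392) and Pax6 1456342_at (-0.10, adjusted p = 0.611) were not called. Which part of its transcript each probe set reads was not looked up here. With the mean of its 3 probe sets in place of the brightest, the call of Meis1 was lost (-0.36, adjusted p = 0.0693). By such means Pax6 gave -2.43 and Mycn -1.07, still called.

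The order of the 4 groups was therefore alike for the 8 brightest probe sets: both cerebellar groups stood above both lung groups. In dexamethasone mice the cerebellar level exceeded the lung level by 14.7-fold for Atoh1, 14.1-fold for Barhl1, 459-fold for Zic1, 10.6-fold for Zic2, 65.1-fold for Pax6, 2.94-fold for Meis1, 8.83-fold for Mycn and 77.2-fold for Insm1, given as values without a test. Within an organ, vehicle and dexamethasone were neighbours in every order, and among the 16 such pairs of the 8 genes a call was made for Meis1 in lung alone.

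**Figure D1:**
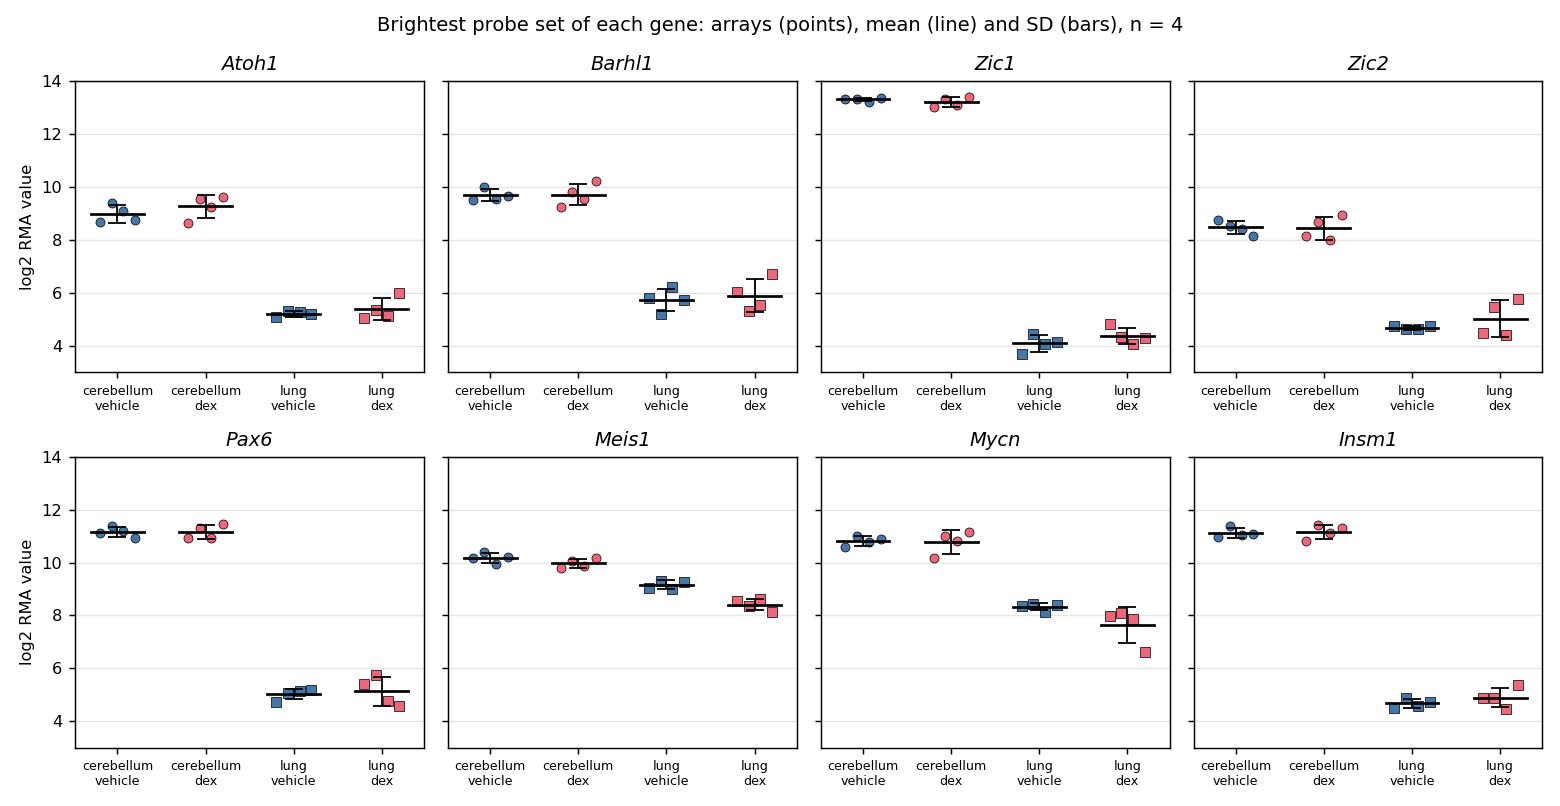
Log2 RMA value (vertical axis) of each gene's brightest probe set on every array, in vehicle (blue) and dexamethasone (red) cerebellum (circles) and lung (squares). Points are arrays, the line is the mean and bars are the SD of 4 arrays. Cerebellar points lie above lung points for all 8 genes. The dexamethasone lung arrays of Meis1 lie between 8.14 and 8.61, below vehicle lung at 8.98 to 9.31.

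Among 14 measured relatives of these genes in the same families, 9 were higher in cerebellum and 1 in lung, with a median log2 of -1.49. Over all genes the median was 0.00175, and 29.7% were called higher in cerebellum. Neurod1, a helix-loop-helix factor of differentiating granule neurons, was 239-fold lower in lung, Zic5 99.5-fold and Zic4 31.4-fold. Atoh8 was 2.39-fold higher in lung. The 4 not called were Pax4, Pax7, Meis2 and Myc.

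In cerebellum, dexamethasone was not followed by a called change in any of the 8 genes, where 4.8% of all genes (874 of 18193) were called in either direction. Differences, dexamethasone minus vehicle, ran from -0.21 for Meis1 to 0.28 for Atoh1 on the log2 scale, with adjusted p from 0.465 to 1. At an unadjusted p under 0.05 the count was also 0, since the lowest was 0.117. The 95% intervals of the 8 differences reached from -0.60 to 0.75. Whole-organ RNA does not tell fewer cells of a type from less RNA per cell, here or in the results that follow.

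Atoh1 read 8.69, 9.41, 9.11 and 8.75 in the vehicle arrays B78, B79, B80 and B81. It read 8.65, 9.53, 9.24 and 9.63 in the dexamethasone arrays B39, B49, B50 and B52. The groups overlapped, and the dexamethasone mean was higher by 0.28 ± 0.22 (adjusted p = 0.634). Mycn read 10.57, 11.02, 10.76 and 10.90 with vehicle and 10.15, 11.02, 10.81 and 11.16 with dexamethasone. Its difference was -0.03 ± 0.27 (adjusted p = 0.983), with 1 dexamethasone array below and 1 above the whole vehicle group.

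Zic1 read 13.02, 13.33, 13.09 and 13.41 with dexamethasone, against 13.21 to 13.36 with vehicle, a difference of -0.10 ± 0.16 (adjusted p = 0.868). Zic2 read 8.16, 8.66, 7.98 and 8.94, against 8.15 to 8.77, a difference of -0.03 ± 0.27 (adjusted p = 0.980). Insm1 read 10.83, 11.43, 11.10 and 11.31, against 10.98 to 11.37, a difference of 0.05 ± 0.17 (adjusted p = 0.947). All 3 zinc-finger genes overlapped between the groups, and their dexamethasone arrays were spread more widely than their vehicle arrays.

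Pax6 had the same mean in both groups, 11.16, with SDs of 0.26 (dexamethasone) and 0.18 (vehicle). Its 95% interval ran from -0.45 to 0.45. Its 4 other probe sets gave differences from -0.11 to 0.20, none called. Meis1 read 9.79, 10.05, 9.87 and 10.16 with dexamethasone and 10.17, 10.40, 9.94 and 10.20 with vehicle, a difference of -0.21 ± 0.13 (adjusted p = 0.465). The other Meis1 probe sets differed by -0.02 and 0.18, so the 3 did not share a sign.

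Among the members, Barhl1 had the probe sets whose changes in cerebellum lay furthest apart. The brighter, 1418812_a_at, read 9.51, 10.00, 9.56 and 9.67 with vehicle and 9.25, 9.79, 9.55 and 10.21 with dexamethasone, a difference of 0.02 ± 0.28 (adjusted p = 0.988). The other, 1418811_at, read 8.77, 9.41, 8.93 and 9.05 with vehicle and 7.96, 8.41, 8.15 and 8.60 with dexamethasone. All 4 dexamethasone arrays of 1418811_at lay below all 4 vehicle arrays, but the difference of -0.76 ± 0.22 missed the threshold over all probe sets (adjusted p = 0.0728, unadjusted p = 0.00294). It was the lowest adjusted p of the 19 probe sets in cerebellum, of which limma called 0 (1 at an unadjusted p under 0.05), against 3.23% of all probe sets. It passed with the cerebellar arrays alone (adjusted p = 0.0459), with array weights (0.0461) and without lung dexamethasone array B31 (0.0250). It did not pass without vehicle array B79 (-0.64, adjusted p = 0.228).

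The level of 1418811_at minus that of 1418812_a_at on the same array was -0.735 to -0.598 with vehicle and -1.61 to -1.29 with dexamethasone, a shift of -0.777. Over the 70 arrangements of 4 against 4 arrays, the exact two-sided permutation test gave p = 0.0286, the smallest it allows, and an adjusted p of 0.157 over the 22 such probe set pairs of the members. Zic1 in cerebellum (0.144) and both dimmer Mycn probe sets in lung (0.753 and 1.02) reached the same p. With 4 against 4 arrays no pair can give a p below 0.0286, and this floor also limits the adjusted p. The test therefore could not decide whether the Barhl1 probe sets moved apart. Their ratio did not overlap between the groups on these arrays, and a ratio does not show which probe set held still.

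**Figure D2:**
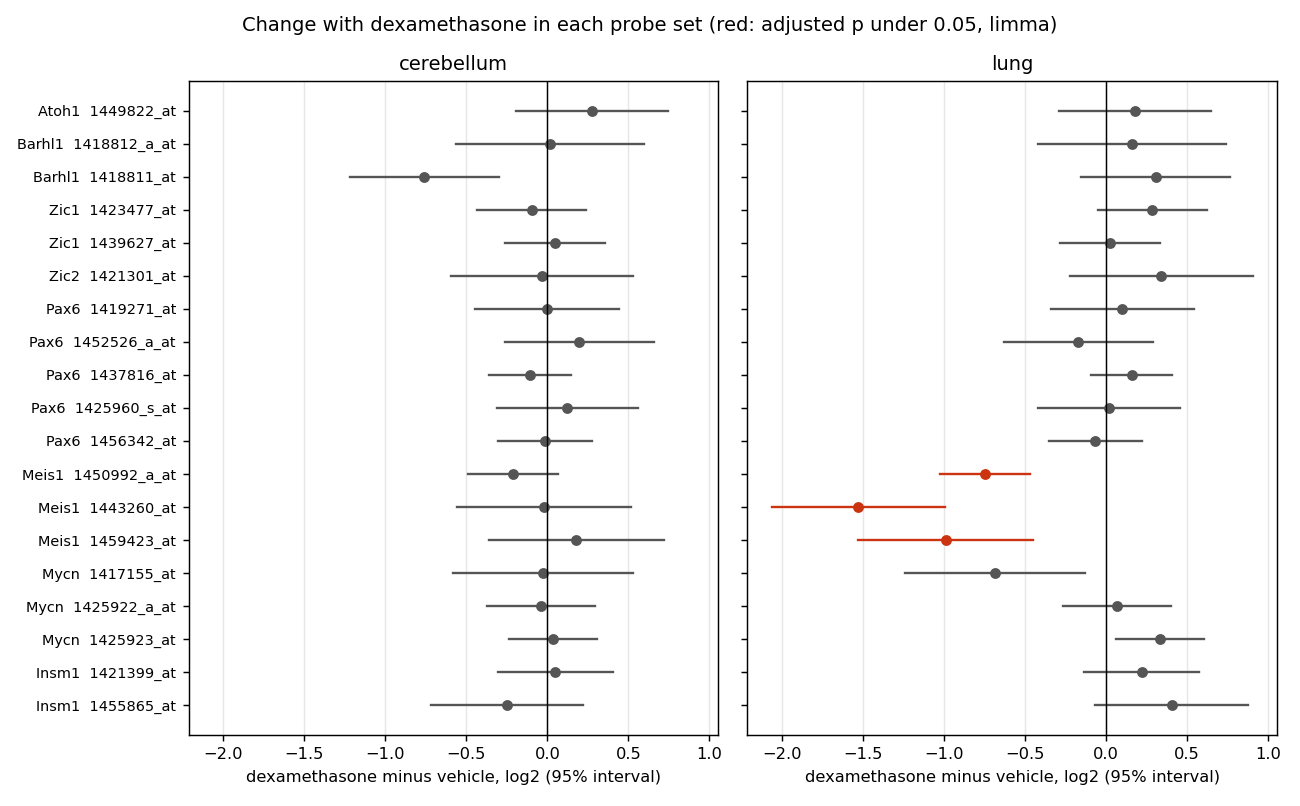
Difference between dexamethasone and vehicle on the log2 scale (horizontal axis) for each of the 19 probe sets, in cerebellum (left) and lung (right). Points are limma estimates and bars their 95% intervals, and red marks an adjusted p under 0.05. No cerebellar point is red, and the 3 red points in lung are the probe sets of Meis1, at -0.75, -1.53 and -0.99.

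Within each cerebellar group several of the 8 genes followed the same arrays. Array B39 was the lowest of the dexamethasone group in 6 of the 8 genes, with a mean deviation from the group of -0.36, and array B52 the highest in 7, with 0.32. In the vehicle group, array B79 was the highest in 6. Without B39 the Atoh1 difference was 0.48 (adjusted p = 0.258), still not called.

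The genes with the profile most like a member's were found by the root mean square difference of log2 values after each gene's own mean was subtracted, over the 8 cerebellar arrays. The search took the closest of 18193 genes, so a close match is how they were chosen, and the arrays share organ, treatment and processing. For Atoh1 they were Aurka (0.0493), Kif20a (0.109) and Cdca2 (0.110), where Atoh1 itself had an SD of 0.391 over these arrays. Aurka, a mitotic kinase, read 7.62, 8.44, 7.99 and 7.76 with vehicle and 7.57, 8.52, 8.18 and 8.56 with dexamethasone. For Mycn the closest were Nusap1 (0.0650), Kif23 (0.0703) and Nexn (0.0787), and for Barhl1 Smpx (0.0535), Nek2 (0.0754) and Rab25 (0.0828).

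The closest genes to Zic1 in cerebellum were Krr1, Comp and Txnrd1 (0.0409 to 0.0453), and to Zic2 Car8, Thoc2l and Cep295 (0.157 to 0.162). To Pax6 they were Map2k6, Mynn and Clspn (0.0616 to 0.0644). To Meis1 they were Dock11, Eri1 and Tmed9 (0.0412 to 0.04998). To Insm1 they were Accsl, Trpd52l3 and Ctbp2 (0.0459 to 0.0610). Zic2 thus had the least close of these matches.

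**Figure D3:**
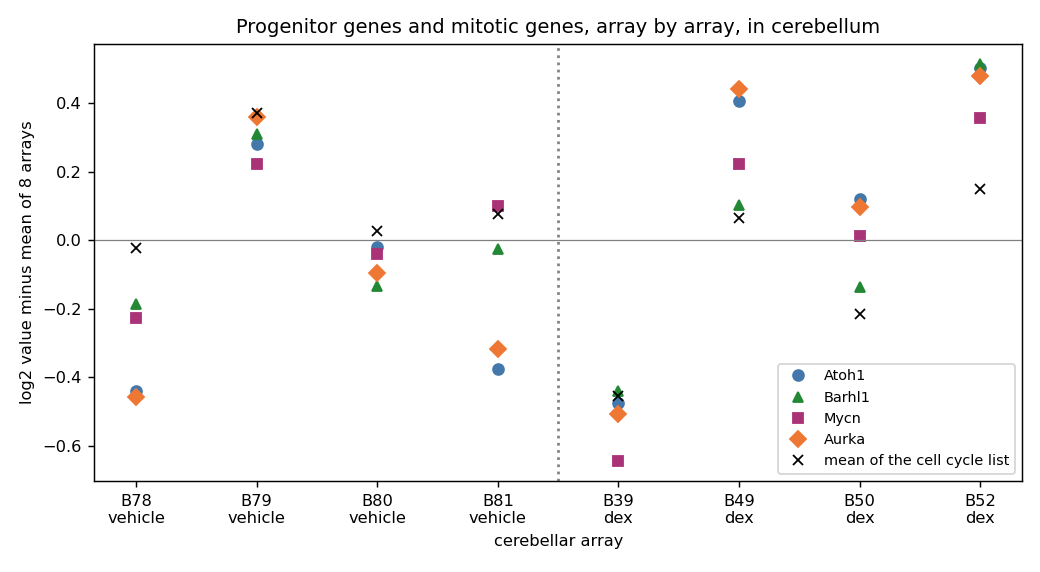
Log2 value minus the mean of the 8 cerebellar arrays (vertical axis) for Atoh1, Barhl1 (brighter probe set), Mycn, Aurka and the mean of 20 cell cycle genes, on each vehicle (left of the dotted line) and dexamethasone (right) array. Each point is 1 array. Atoh1 and Aurka lie almost on top of each other, array B39 is lowest and arrays B79 and B52 are high.

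The counts called in cerebellum for the pathways that bear on the members stand beside 4.8% of all genes called either way. Of 14 hedgehog pathway genes limma called 1 (3 at an unadjusted p under 0.05). It was Gli3, a hedgehog-regulated repressor, which fell (-0.54 ± 0.14, adjusted p = 0.0389). The list's changes ran from -0.54 to 0.47, with a median of -0.05 beside 0.00675 over all genes. The count called higher, 0 here, reached 2 under some alternatives and 1 when 1 array was left out. With the mean of its probe sets Gli3 gave -0.25 (adjusted p = 0.348), and its call was also lost with adjustment over all probe sets (0.0512) and with Xist as a covariate (0.0619). It was lost too when any 1 of 11 arrays was left out (adjusted p = 0.0504 to 0.107). Gli1, a target of the pathway (0.09, adjusted p = 0.922), Ptch1, the hedgehog receptor and also a target (0.24, adjusted p = 0.344), and Ccnd2, a cyclin of dividing progenitors (-0.10, adjusted p = 0.860), were not called. Of 20 cell cycle genes limma called 0 (6 at an unadjusted p under 0.05), and the median was -0.24. After quantile or cyclic loess normalization 1 to 2 of the 20 were called lower. The mean of those 20 ran from 9.97 to 10.4 over vehicle arrays and from 9.54 to 10.1 over dexamethasone arrays.

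The next counts stand beside the same 4.8% of all genes. Among 10 E proteins and inhibitors of Atoh1, Id1, which sequesters E proteins, fell (-0.46 ± 0.12, adjusted p = 0.0333), a call lost when any 1 of 6 arrays was left out (0.0572 to 0.105). Among 7 Meis partners, Pbx2 rose (0.58 ± 0.11, adjusted p = 0.00598). Of 12 genes of the Myc network and Mycn turnover, Mlx (0.68 ± 0.11, adjusted p = 0.00253) and Fbxw7, a ubiquitin ligase subunit that marks Mycn for breakdown (0.44 ± 0.09, adjusted p = 0.00637), rose. Of 12 genes raised by Myc proteins 0 were called (2 at an unadjusted p under 0.05), with Ncl at -0.13 and Npm1 at -0.16. Of the 14 relatives 0 were called (3 at an unadjusted p under 0.05), with Neurod1 at 0.15 and Meis2 at 0.08.

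Genes of the neurons that progenitors become were partly higher. Of 13 markers of differentiating granule neurons 2 rose, Gabra6, a GABA receptor subunit of mature granule neurons (1.23 ± 0.22, 2.35-fold, adjusted p = 0.00419), and Cbln3, a secreted synaptic protein of granule neurons (0.84 ± 0.19, adjusted p = 0.0151). The call of Cbln3 was lost with the mean of its probe sets (adjusted p = 0.150) and without array B78 (0.0512). The other 11 were not called. The median was 0.03 beside 0.00675 over all genes, of which 4.8% were called either way. The mean of the 13, which includes the 2 called genes, ran from 10.2 to 10.3 with vehicle and from 10.4 to 10.7 with dexamethasone.

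Markers of other cells in the cerebellum moved beside these values, against 4.8% of all genes called either way. Of 10 endothelial markers 6 fell, with a mean of 7.71 to 8.05 with vehicle and 7.09 to 7.22 with dexamethasone, and Tek fell by 1.25 and Cdh5 by 1.11 on the log2 scale. Of 6 neutrophil markers 2 fell, with means of 5.85 to 6.43 and 5.10 to 5.80, a count that ran from 0 to 3 when 1 array was left out. One marker rose for Purkinje cells (Gng13, 0.71), 1 for interneurons (Pvalb, 1.04) and 1 for astrocytes and Bergmann glia (Aldoc, 0.70). One fell among meningeal markers (Foxc1, -0.63), 1 among unipolar brush cells and other rhombic lip derivatives (Otx2, -0.60) and 1 in the mesenchymal list (Col1a1, -1.16). The call of Gng13 was lost when any 1 of 11 arrays was left out, and that of Foxc1 for any 1 of 6. With the compared arrays alone the calls of Pvalb (adjusted p = 0.0548) and Aldoc (0.0588) were lost, and that of Aldoc also with the mean of its probe sets (0.0693). None of the 7 brainstem and 7 choroid plexus markers was called by limma (0 at an unadjusted p under 0.05), but the brainstem mean ran from 4.70 to 6.203 over cerebellar arrays. The part of these in the values of the 8 genes was not tested.

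In lung, Meis1 fell with dexamethasone and the other 7 genes were not called. The 1 of 8 genes compares with 15.5% of all genes called lower and 31.2% called either way. Meis1 read 9.04, 9.31, 8.98 and 9.28 in the vehicle arrays B12, B14, B19 and B22 and 8.54, 8.34, 8.61 and 8.14 in the dexamethasone arrays B28, B31, B40 and B46. All 4 dexamethasone arrays lay below all 4 vehicle arrays. The difference was -0.75 ± 0.13, or 1.68-fold lower (adjusted p = 0.000288), and it stayed past the threshold without any 1 of the 16 arrays (-0.81 to -0.66).

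All 3 Meis1 probe sets fell in lung, and they were the 3 of 19 called there, against 13.3% of all probe sets called lower. Meis1 1443260_at read 8.44, 8.51, 7.05 and 8.25 with vehicle and 6.67, 6.33, 6.82 and 6.33 with dexamethasone, a difference of -1.53 ± 0.25 (adjusted p = 0.000266). Vehicle array B19 lay well below its group there, but still above every dexamethasone array. Meis1 1459423_at read 5.69, 6.64, 5.25 and 5.45 with vehicle and 4.89, 4.42, 4.71 and 5.05 with dexamethasone, a difference of -0.99 ± 0.26 (adjusted p = 0.00856), also without overlap.

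**Figure D4:**
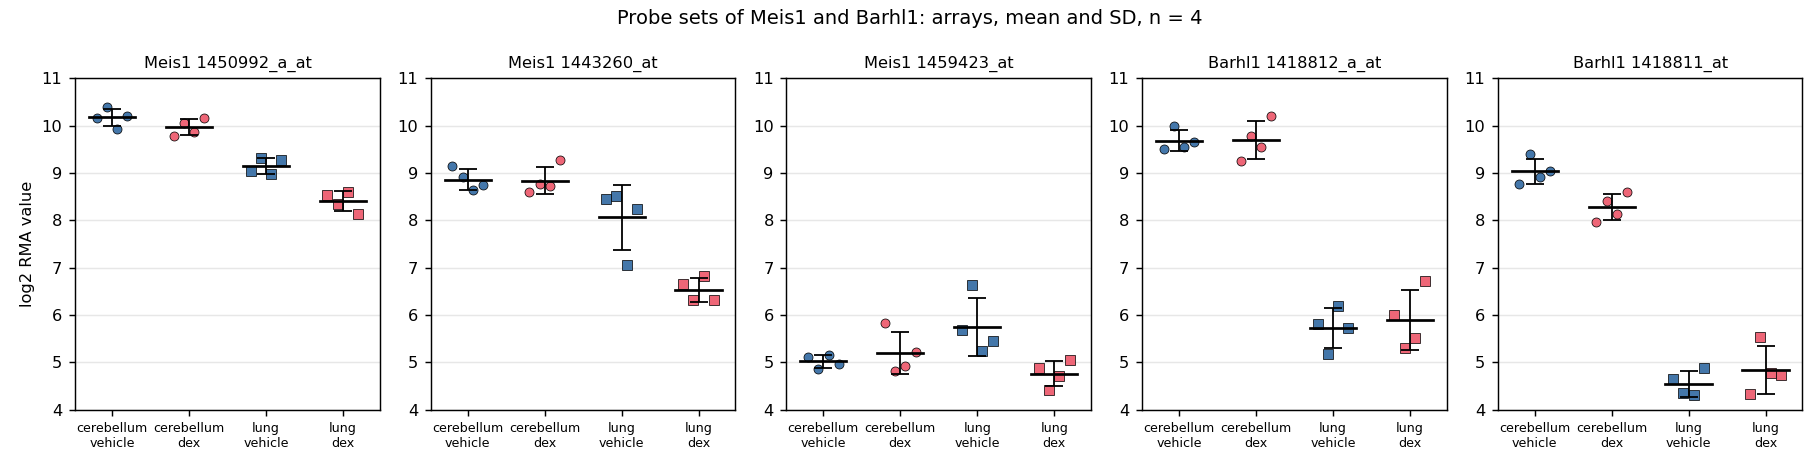
Log2 RMA value (vertical axis) of the 3 probe sets of Meis1 and the 2 of Barhl1 on every array, in vehicle (blue) and dexamethasone (red) cerebellum (circles) and lung (squares), with mean and SD of 4 arrays. The 3 Meis1 probe sets are lower in dexamethasone than in vehicle lung without overlap, and the Barhl1 probe sets differ in cerebellum, where 1418811_at is lower with dexamethasone (7.96 to 8.60 against 8.77 to 9.41) and the groups of 1418812_a_at overlap.

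Mycn also did not overlap between the lung groups but was not called. It read 8.37, 8.42, 8.14 and 8.39 with vehicle and 7.99, 8.10, 7.86 and 6.63 with dexamethasone, a difference of -0.69 ± 0.27 (adjusted p = 0.0597). Array B46 lay well below the other 3 of its group, and without it the difference was -0.35 (adjusted p = 0.183). Array B46 was also the lowest of the group in the mean of the 20 cell cycle genes (7.51 against 7.94 to 8.12) and of 10 mesenchymal markers (9.62 against 10.2 to 10.4). The dimmer Mycn probe sets differed by 0.07 and 0.33, and neither was called. The groups of 1425923_at, the one that differed by 0.33, did not overlap either, in the opposite direction, with 5.33 to 5.81 in vehicle and 5.82 to 6.07 in dexamethasone lung (0.33 ± 0.13, adjusted p = 0.0697). It was called after a further quantile normalization (adjusted p = 0.0468). Mycn was called with dim features left out (adjusted p = 0.0487) and without array B39, B28 or B31 (0.0321 to 0.0463). With the mean of the 3 probe sets Mycn differed by -0.10 (adjusted p = 0.639).

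The other 6 genes were dim in lung and none was called. Differences were 0.18 for Atoh1, 0.16 for Barhl1, 0.28 for Zic1, 0.34 for Zic2, 0.10 for Pax6 and 0.22 for Insm1, with adjusted p from 0.195 to 0.769. Dexamethasone lung read 5.06 to 6.00 for Atoh1, 5.30 to 6.72 for Barhl1, 4.07 to 4.80 for Zic1, 4.395 to 5.76 for Zic2, 4.58 to 5.74 for Pax6 and 4.46 to 5.37 for Insm1. Array B46 held the highest value of the group for Atoh1, Barhl1, Zic2 and Insm1. The spread between dexamethasone arrays of Zic2 (SD 0.69) exceeded that of vehicle arrays (SD 0.08).

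Insm1 was near the low end in lung in both groups, where it is known from neuroendocrine cells. Of 11 neuroendocrine markers in lung, Chgb, a granin, rose (0.63 ± 0.19, adjusted p = 0.0197), and Ddc, which makes serotonin and dopamine (-2.14 ± 0.44, adjusted p = 0.00129), and Grp, a peptide of these cells (-1.29 ± 0.30, adjusted p = 0.00318), fell. The call of Chgb was lost when any 1 of 4 arrays was left out (adjusted p = 0.0549 to 0.0737). The list's median was -0.00975 beside 0.0482 over all genes, of which 31.2% were called either way.

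Some genes that work with Meis1 and the other members were called in lung. Over all genes 31.2% were called there either way and 15.5% lower. Of 7 Meis partners 2 fell, Pbx3 (-0.62 ± 0.13, adjusted p = 0.00183) and Hoxb4 (-0.71 ± 0.18, adjusted p = 0.00577). Of the 14 relatives, Meis3, a close family member, fell (-0.81 ± 0.19, adjusted p = 0.00393), from 6.09 to 5.28 in the group means. Meis2 went from 8.90 to 8.33 and was not called (adjusted p = 0.531). The genes closest in profile to Meis1 over the 8 lung arrays were Arhgef25 (0.0599), Pitpnc1 (0.0634) and Hoxb3 (0.0684), where Meis1 had an SD of 0.437. For Mycn they were Itgb6 (0.0823), 5730409E04Rik (0.110) and Mfap4 (0.116).

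In lung 8 of 14 hedgehog pathway genes fell, with a median of -0.58, against 15.5% of all genes called lower. Among the 8 were the pathway's transcription factors Gli2 (-1.50 ± 0.21) and Gli3 (-1.30 ± 0.14) and Ccnd2 (-0.84 ± 0.15). The counts that follow compare with the same 15.5% and with 31.2% called either way. Of 10 E proteins and inhibitors 4 fell, including all 3 E proteins, Tcf3 (-0.80), Tcf4 (-0.66) and Tcf12 (-0.53), and Id1 rose (0.49). Of 12 genes of the Myc network 4 rose, among them Max, the partner of every Myc protein (0.66), Mxd1, a Max-binding repressor (0.81), and Mlx (0.64). The 2 that fell were Mxd3 (-0.69) and Aurka, which also protects Mycn from breakdown (-2.31). Of 12 genes raised by Myc proteins 4 fell, including the nucleolar proteins Ncl (-0.31) and Nop58 (-0.58) and Odc1, an enzyme of polyamine synthesis (-0.44), a call lost when any 1 of 6 arrays was left out (adjusted p = 0.0515 to 0.125).

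Cell cycle genes and markers of several cell types moved in lung beside Meis1. Among all genes 31.2% were called there either way and 15.5% lower. Among 20 cell cycle genes, 19 fell (list median -1.92), including Top2a (-2.96), Cdk1 (-2.39) and Bub1 (-3.11), and their mean ran from 9.52 to 9.89 with vehicle and from 7.51 to 8.12 with dexamethasone. Of 10 endothelial markers 5 fell, such as Kdr (-0.92) and Emcn (-1.06), with means of 10.8 to 11.03 and 10.4 to 10.5. Of 10 lung mesenchymal markers 4 fell, such as Col1a1 (-1.62) and Tbx4 (-0.57), with means of 10.7 to 10.8 and 9.62 to 10.4. All 6 neutrophil markers rose, with means of 8.83 to 9.75 and 11.4 to 12.2, as did 5 of 7 heart muscle markers (7.43 to 7.59 and 8.15 to 8.67) and 4 of 7 epithelial markers (10.9 to 11.1 and 11.4 to 11.5), the last a count of 2 to 5 without 1 array. Their part in the fall of Meis1 was not tested.

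The test of the difference between organs, the lung change minus the cerebellar change, was called for 1 of the 8 genes, against 21.3% of all genes. Meis1 gave -0.535 ± 0.18 (adjusted p = 0.0460), from -0.75 in lung and -0.21 in cerebellum. This call was lost with the values normalized again by quantiles or cyclic loess, with Xist as a covariate, with p-values adjusted over all probe sets, and without any 1 of 10 of the 16 arrays, at adjusted p from 0.0539 to 0.0961. Mycn gave -0.66 ± 0.38 (adjusted p = 0.243). The other 6 gave -0.10 to 0.38, with adjusted p from 0.261 to 0.872.

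By probe set the difference between organs was called for 3 of 19, against 14.3% of all probe sets. Meis1 1443260_at gave -1.51 ± 0.36 (adjusted p = 0.00864) and Meis1 1459423_at -1.17 ± 0.36 (adjusted p = 0.0382), while the brightest Meis1 probe set did not pass on this scale (adjusted p = 0.0631). Barhl1 1418811_at gave 1.06 ± 0.31 (adjusted p = 0.0280), from 0.30 in lung and -0.76 in cerebellum, and neither of those changes was called on its own. Without lung vehicle array B14, 1 of the 3 calls was left, that of Meis1 1443260_at (-1.36, adjusted p = 0.0209).

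Over all 16 arrays, the profiles most like those of the members were set mainly by the distance between the organs. The closest were Tmem200c for Atoh1 (0.233) and for Barhl1 (0.283), Calb1, a calcium-binding protein of Purkinje cells, for Zic1 (0.431), Scrt1 for Zic2 (0.282), Sphkap for Pax6 (0.224), Cdk2ap1 for Meis1 (0.128), Gpm6b for Mycn (0.298) and Synpr for Insm1 (0.214). Next in line were Amer2 and Shf for Atoh1, Col9a3 and Cdh7 for Barhl1, Stmn3 and Ina for Zic1, Neurod2 and Fgf5 for Zic2, Clvs1 and Synpr for Pax6, Msh6 and Ddah2 for Meis1, Zfp521 and Amph for Mycn, and Zic5 and Lhx1 for Insm1.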

How the data were processed

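RNA of 16 whole organs was hybridised to Affymetrix mouse arrays in the form of biotin-labelled cRNA (labels' protocols). The authors deposited log2 levels from RMA. The submitters' processing notes name RMA without a version or settings. Of 45101 probe sets, 64 were array controls, 34945 had 1 gene symbol, 932 several and 9160 none in the table used. Symbols were updated through RefSeq (GRCm38.p6) for 18032 of 18193 genes. No probe set with several symbols was used. Depth is not defined for arrays, and 4 per group limits the precision.

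Genes (brightest probe set) and, separately, all 45037 probe sets were fitted in limma (3.58.1, R 4.3.3) with 1 mean per group, 12 residual degrees of freedom, eBayes and Benjamini-Hochberg adjustment. The fit was tested on simulated data. Errors of log2 differences are moderated SEs. Nothing in the labels says whether animals shared a litter, and the p-values reflect only how these arrays varied.

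The 8 members and the gene lists were chosen with earlier results of these data known. Each list was described by at most 3 called genes each way, those of lowest adjusted p, or by its 2 brightest genes if it had none. Genes named outside that rule (Gli1, Ptch1 and Ccnd2 in cerebellum, Meis2 in lung, and relatives not called between organs) were chosen after their values were seen. Each member was given the 3 genes closest in profile. Alternatives were the mean of probe sets, adjustment over all probe sets, a filter on dim features, quantile or cyclic loess normalization again, the compared arrays alone, array weights, robust estimation with a variance trend, each array left out in turn, and a covariate for Xist.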

Additional observations from a re-analysis of the deposited data

Results flagged for a closer look

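In 4 of 76 checks of a probe set within a group of 4 arrays, 1 array stood apart from the others by Dixon's criterion, and chance gives about 1 in 20. Zic1 1423477_at read 13.21 in cerebellar vehicle array B80, below 13.33 to 13.36 in the others. Pax6 1425960_s_at read 5.058 in cerebellar vehicle array B81, against 5.79 to 5.93. Mycn 1417155_at read 6.63 in lung dexamethasone array B46, against 7.86 to 8.10. Mycn 1425923_at read 6.061 in cerebellar dexamethasone array B49, against 5.70 to 5.71.

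By limma's test of the difference itself, the change with dexamethasone was called different between lung and cerebellum for Meis1 as a gene (-0.535). It was also called for its probe sets 1443260_at (-1.51) and 1459423_at (-1.169). Over all features this test called 21.3% of genes and 14.3% of probe sets. The gene call of Meis1 was close to the threshold (adjusted p = 0.0460) and was lost under several alternatives. Its brightest probe set was not called over all probe sets (adjusted p = 0.0631). The probe set 1418811_at of Barhl1 differed in the other direction (1.062), from -0.76 in cerebellum and 0.30 in lung. When 1 array was left out, the limma adjusted p reached 0.0616 for Barhl1 1418811_at and 0.0736 for Meis1 1459423_at.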

How the results depend on the processing

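Of 2501 values of the members under the alternatives, 2342 kept their direction and their side of the threshold, 33 lost a call, 17 gained one, 0 called values reversed, and 109 uncalled values turned sign. The count of members called for the difference between organs went from 1 to 0 with p-values adjusted over all probe sets, with quantile or cyclic loess normalization again and with Xist as a covariate, and ran from 0 to 1 when 1 array was left out. In lung the count of members called went from 1 to 2 with dim features left out, by the addition of Mycn, and ran from 1 to 2 without 1 array (2 without B39, B28 or B31). The count of member probe sets called in cerebellum went from 0 to 1, Barhl1 1418811_at, with the compared arrays alone and with array weights, and ran from 0 to 1 without 1 array. For the difference between organs the count of member probe sets was 3, and ran from 1 to 3 without 1 array. The count of all genes called in cerebellum, 874, was 1699 with array weights and ran from 528 (without B50; 557 without B79) to 1229 (without lung array B46). No paired analysis was possible because no replicate number is shared between the groups. For genes near the floor in lung, RMA compresses differences, so a change there, if present, could read smaller than it is. The values do not show whether there is one.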
